A study of Mus musculus with 6 samples.

Results

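The subunits of the mitochondrial respiratory chain and ATP synthase were followed in MLE-12 cells given cigarette smoke extract. The members were all protein-coding genes of the annotation whose symbol begins with Ndufa, Ndufb, Ndufc, Ndufs, Ndufv, Uqcr, Atp5, Cox4, Cox5, Cox6, Cox7, Cox8 or mt-, together with Sdha, Sdhb, Sdhc, Sdhd, Cyc1 and Cycs, and without the Ndufaf assembly factors. This rule uses names only and found 101 of 36047 genes, of which 88 are encoded in the nucleus and 13 in mitochondrial DNA. MLE-12 is a mouse lung epithelial line, wild type in its labels and immortalised with a viral large T antigen. Of 6 RNA-seq libraries, 3 came from cells given cigarette smoke extract (CSE), a solution of smoke constituents, and 3 from cells given an equal volume of PBS. CSE was used at 5% with an optical density of 2, was added at 30% cell density, and cells were collected after 24 h. The labels do not state whether replicate libraries were grown as separate cultures. The p-values therefore cover library-to-library spread, part or all of which may be technical.

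The respiratory chain passes electrons from NADH, through complex I, and from succinate, through complex II, to ubiquinone, then through complex III and the mobile carrier cytochrome c to complex IV, which reduces oxygen. Complexes I, III and IV pump protons, and complex V, the ATP synthase, uses the gradient to make ATP. Complex II is built from nuclear genes alone, whereas the other complexes combine nuclear subunits with a few made inside the mitochondrion. Several subunits of complex IV have tissue-specific forms, and Cox6a2 is the form known from heart and skeletal muscle. Nuclear respiratory factor 1 (NRF1) and ETS factors are known regulators of many nuclear subunit genes.

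Of the 4 nuclear members called higher in CSE, Ndufb3, Ndufa12 and Cycs had an entry in a RefSeq table of start-site regions on GRCm38.p6. These regions run from 250 bases before to 50 bases after the annotated start and are shown because the data place these genes among the called members. Capitals mark CGCATGCG, the core letters of the NRF1 site, and TGACGTCA, the cAMP response element (CRE), on either strand. The region of Ndufb3 is chr1:58586147-58586446 on the plus strand, that of Ndufa12 is chr10:94198785-94199084 on the plus strand and that of Cycs is chr6:50566520-50566819 on the minus strand.
Ndufb3: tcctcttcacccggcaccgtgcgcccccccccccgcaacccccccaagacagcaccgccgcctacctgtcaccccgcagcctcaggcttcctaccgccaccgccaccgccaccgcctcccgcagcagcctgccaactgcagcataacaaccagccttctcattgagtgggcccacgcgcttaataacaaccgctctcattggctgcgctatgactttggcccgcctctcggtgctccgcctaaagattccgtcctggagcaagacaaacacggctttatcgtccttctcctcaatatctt
Ndufa12: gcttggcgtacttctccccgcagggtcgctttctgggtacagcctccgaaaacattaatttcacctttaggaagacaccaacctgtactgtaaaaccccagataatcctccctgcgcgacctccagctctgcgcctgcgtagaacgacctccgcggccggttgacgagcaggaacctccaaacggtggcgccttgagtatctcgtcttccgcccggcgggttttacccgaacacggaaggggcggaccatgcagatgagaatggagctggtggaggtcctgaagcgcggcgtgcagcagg
Cycs: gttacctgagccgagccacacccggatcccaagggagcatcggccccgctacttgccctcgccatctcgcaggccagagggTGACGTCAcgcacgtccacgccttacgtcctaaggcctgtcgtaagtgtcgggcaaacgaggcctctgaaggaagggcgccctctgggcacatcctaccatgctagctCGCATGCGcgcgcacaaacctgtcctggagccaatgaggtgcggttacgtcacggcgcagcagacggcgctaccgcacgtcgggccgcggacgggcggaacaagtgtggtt
Both sets of letters are in the Cycs region and neither is in those of Ndufb3 and Ndufa12. Over all 27025 genes of the table, 2.07% had CGCATGCG, against 10 of the 70 member genes with an entry (14.3%). Of these members 66 passed the filter on low counts, and 15.2% of them had the letters, against 4.24% of the 10174 genes that passed it and matched an entry by symbol. CCGGAAG, an ETS site, was in 24.2% of those 66 members and 19.6% of those genes, and TGACGTCA in 7.58% and 3.51%. TTGCGTG, the core letters bound by the aryl hydrocarbon receptor, which senses smoke constituents, was in 1.52% of the members and 1.97% of the genes. TGACNNNGC, the antioxidant response element, was in 13.6% and 16.4%. Over all entries, filtered or not, these last 4 motifs were in 22.9%, 7.14%, 1.43% and 12.9% of members and in 9.93%, 2.03%, 1.35% and 14.0% of genes. All motifs were searched on both strands, matches of different motifs could overlap, and a match is a description of letters only.

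Depth was 13647897, 18082404 and 19486697 estimated counts for PBS, against 12093009, 24050167 and 17075604 for CSE. Of 5 epithelial markers, 3 were called lower in CSE, Krt19, Krt8 and Cdh1. In PBS the 5 summed to 1162 to 1280 TPM (transcript level per length, scaled to one sum in each library). In CSE they summed to 604 to 690 TPM. Most of this sum was Krt19, at 1005 ± 47.2 TPM in PBS and 493 ± 40.3 TPM in CSE. Krt8 went from 206 ± 11.7 to 160 ± 7.25 TPM. Epcam was not called (-0.46 ± 0.24, adjusted p = 0.259, edgeR), and Krt18 was near 0 with 21 counts over all libraries. The labels name the cell line for all samples, although their RNA extraction protocol mentions lung tissue. The lung epithelial regulator Nkx2-1 was at 98.7 to 130 TPM without a call (-0.11 ± 0.08, adjusted p = 0.423, edgeR). Ager, the abundant marker of alveolar type I cells, fell from 183 ± 10.6 to 73.5 ± 5.88 TPM (-1.23 ± 0.07, adjusted p = 2.2e-06, edgeR). The surfactant gene Sftpc was low, with at most 3.67 TPM in a library, and was called lower, and Sftpb was at 0.692 to 1.90 TPM with overlapping groups. Fibroblast markers summed to 17.2 to 18.1 TPM in PBS and 12.9 to 14.2 TPM in CSE, but went in opposite directions. Col1a1 fell (-0.60 ± 0.07, adjusted p = 0.000353, edgeR), Pdgfra rose from 2.67 ± 0.154 to 4.49 ± 0.576 TPM (0.84 ± 0.12, adjusted p = 0.00125), and Col1a2 had 31 counts in all. Of the endothelial markers, Cdh5 had no count, and Pecam1 was low and lower in every CSE library without a call (1.73 ± 0.258 and 0.881 ± 0.265 TPM, -0.85 ± 0.27, adjusted p = 0.0671). Summed leukocyte markers reached at most 6.16 TPM in any library. The part of these marker differences in the results on respiratory chain genes was not tested. In such bulk RNA, fewer cells of a type and less RNA per cell cannot be told apart.

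Among nuclear subunits, Cox6a2, Ndufb3, Ndufa12 and Cycs rose in CSE, and no nuclear subunit fell. These 4 are 5.0% of the 80 nuclear members tested, against 4.32% of all 13451 genes tested that were called higher in CSE by edgeR's quasi-likelihood test at a Benjamini-Hochberg adjusted p under 0.05. The 0 members called lower stand against 7.12% of all genes, and at an unadjusted p under 0.05 there were also 0, against 13.4% of all genes. DESeq2 and limma-voom likewise called 0 nuclear members lower, against 7.08% and 7.11% of all genes. The share called higher was near that of all genes. At an unadjusted p under 0.05, 18 of 80 nuclear members (22.5%) were higher, against 12.6% of all genes. The fitted change was above 0 in 74 of 80, against 50.9% of all genes, with a median of 0.20 on the log2 scale against 0.01 over all genes. The CSE libraries lay wholly above the PBS libraries for 9 nuclear members (11.2%), against 15.1% of all genes, and wholly below for 0, against 16.2%. The 8 members left out for low counts were Cox4i2, Cox6b2, Cox7a1, Cox7b2, Cox8b, Cox8c, Ndufa4l2 and a second annotated Atp5o gene, none with more than 22 counts over the 6 libraries. All 13 mitochondrially encoded members were tested.

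**Figure D1:**
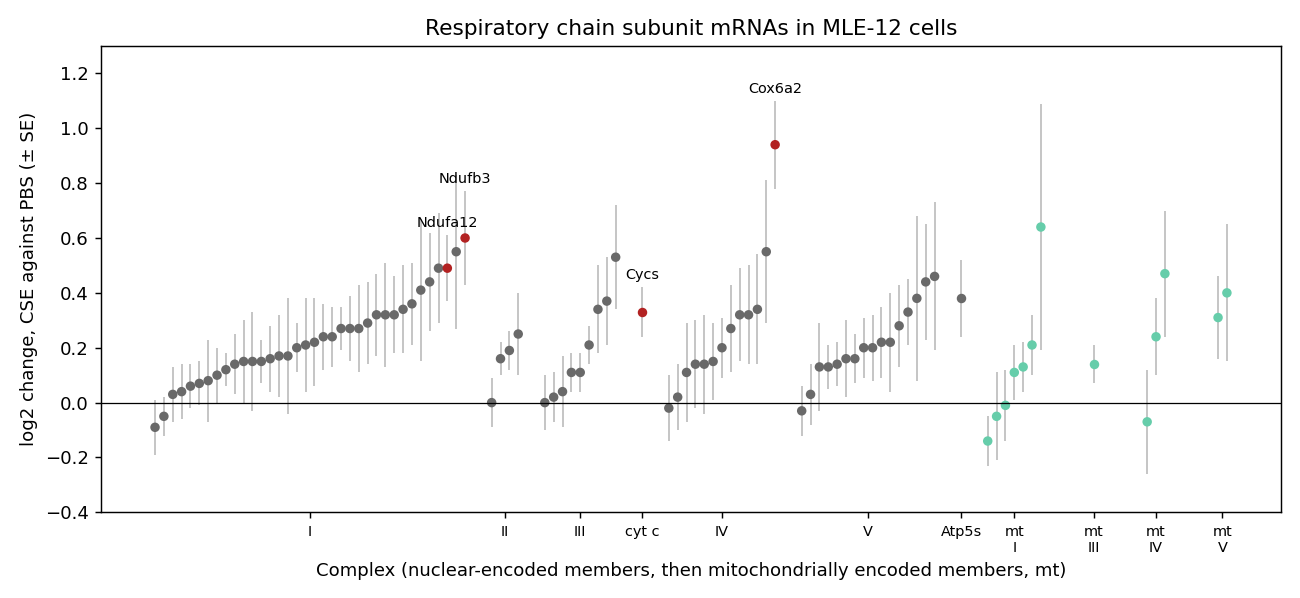
Fitted log2 change (CSE against PBS, with its standard error) of each tested member, ordered by size within its complex. Grey points are nuclear members that were not called, red points are the 4 called members and green points are mitochondrially encoded members. Most nuclear points lie between 0 and 0.6 with Cox6a2 above them at 0.94.

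The increase of Cox6a2, the muscle-type subunit of complex IV, was larger in size than that of any other member tested. Its normalised read count was 5.44, 5.21 and 4.65 CPM (counts scaled to library size) in PBS and 7.71, 10.1 and 11.3 CPM in CSE. All CSE libraries lay above all PBS libraries. The change was 0.94 ± 0.16 on the log2 scale (SE, edgeR's quasi-likelihood test, adjusted p = 0.00368), from 17.4 ± 1.33 to 30.5 ± 3.52 TPM (SD, n = 3). The estimated counts behind it were 72, 96 and 91 in PBS and 93, 242 and 187 in CSE. Cox6a2 was called under every setting tried, with log2 changes between 0.78 and 1.07. The gene lies at chr7:128205435-128206387 on the minus strand of GRCm38, inside the span of the integrin gene Itgad on the plus strand (chr7:128154376-128223816), and 6.2% of its 31-base words also occur in Itgad transcripts. Itgad had 2, 3 and 2 counts in PBS and 4, 9 and 10 in CSE, few beside those of Cox6a2, although how the counting treated strand is not given in the sources used here. The muscle markers Myh6 and Actc1 each had 1 count over all libraries, and 5 muscle markers together had between 0.707 and 1.17 TPM in PBS and between 0.427 and 1.14 TPM in CSE.

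Cox6a2 remained the minor form beside Cox6a1, the form of most tissues. It made up 1.92%, 2.62% and 2.21% of their summed TPM in PBS, against 3.71%, 3.81% and 3.72% in CSE, so the groups did not overlap. Cox6a1 itself was at 762 ± 95.7 TPM in PBS, against 784 ± 86.5 TPM in CSE, and its change of 0.14 ± 0.16 did not pass (adjusted p = 0.608, edgeR). The other tissue-restricted forms were barely detected: Cox4i2 had 19 counts in all, Cox6b2 7, Cox7a1 22, Cox7b2 5 and Ndufa4l2 6, and the muscle form Cox8b and the testis form Cox8c had 0. At these depths a count of 0 allows up to 0.248 CPM in the smallest library and 0.125 CPM in the largest, and such floors cover counting error only.

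**Figure D2:**
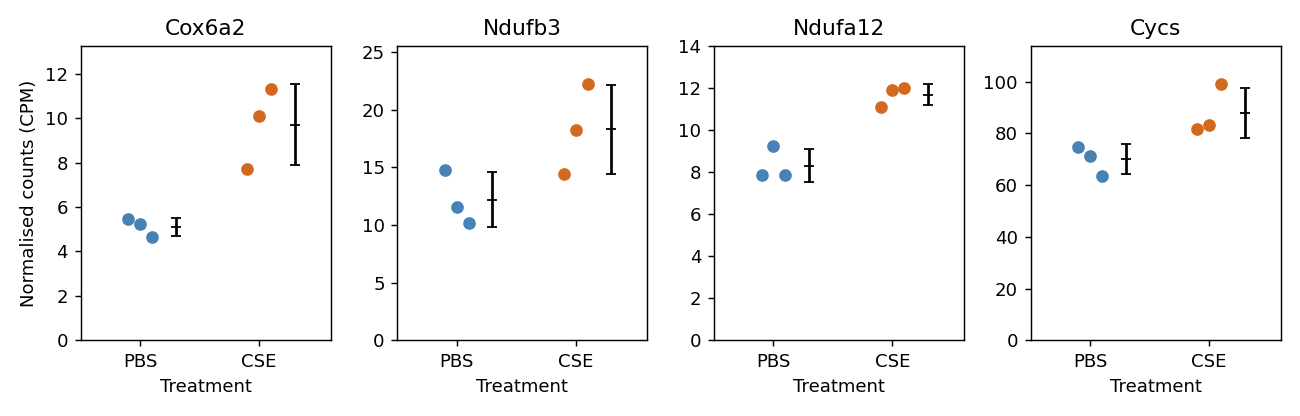
Normalised read count (CPM) of the 4 called members in each library, with points for libraries and bars for the group mean and SD (n = 3). The CSE points lie above all PBS points for Cox6a2, Ndufa12 and Cycs, whereas for Ndufb3 the lowest CSE library (14.4 CPM) lies below the highest PBS library (14.8 CPM).

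Within complex I, 2 of 36 members were called higher, Ndufb3 and Ndufa12. This share of 5.56% was near the 4.32% of all genes. A fitted change above 0 was found in 34 of 36, against 50.9% of all genes. Ndufb3 is an accessory subunit of the membrane arm (chr1:58586384-58595964). Its level was 14.8, 11.6 and 10.2 CPM in PBS and 14.4, 18.2 and 22.2 CPM in CSE, so the groups overlapped. The change was 0.60 ± 0.17 (adjusted p = 0.0471, edgeR), from 35.1 ± 4.63 to 49.0 ± 6.79 TPM. Its call ended under 8 of 19 other settings, with adjusted p up to 0.196 without CSE replicate 3.

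Ndufa12 is an accessory subunit near the NADH-oxidising arm of complex I (chr10:94198720-94221443). It had 7.86, 9.23 and 7.88 CPM in PBS and 11.1, 11.9 and 12.0 CPM in CSE, with no overlap. The change was 0.49 ± 0.12 (adjusted p = 0.0248, edgeR), from 33.6 ± 5.71 to 43.5 ± 2.99 TPM. However, 59.0% of its 31-base words also occur in a processed pseudogene, Gm15920 on chromosome 5, which took between 57.2% and 75.0% of the counts of the pair. With the counts of both added, the levels were 31.5, 21.5 and 24.9 CPM in PBS and 28.7, 33.1 and 40.3 CPM in CSE, the groups overlapped, and the change was 0.40 ± 0.15 (adjusted p = 0.115, edgeR).

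The remaining complex I members did not pass. Ndufa10, an accessory subunit, came closest with 141, 118 and 124 CPM in PBS and 154, 157 and 149 CPM in CSE. Its groups did not overlap, and the change was 0.27 ± 0.08 (adjusted p = 0.0555, edgeR). It was called under 8 of 19 other settings, DESeq2, limma-voom and the filter of at least 5 CPM among them. On average 81.1% of its TPM lay on transcripts not annotated as coding. The core subunits had smaller fitted changes. Ndufs1, an iron-sulfur subunit, had 93.0, 97.7 and 97.5 CPM in PBS and 104, 107 and 103 CPM in CSE, with no overlap and a fitted change of 0.12 ± 0.06 (adjusted p = 0.271, edgeR). Ndufv1, which binds NADH and flavin, had a fitted change of 0.06 ± 0.08 (adjusted p = 0.698).

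Complex II had 4 members and no call, against 11.4% of all genes called in either direction. Sdha, the flavoprotein that oxidises succinate, had 152, 156 and 156 CPM in PBS and 178, 170 and 171 CPM in CSE. The iron-sulfur subunit Sdhb had 83.2, 73.7 and 72.8 CPM in PBS and 87.7, 86.0 and 88.3 CPM in CSE. Neither gene's groups overlapped, yet the differences were small, 0.16 ± 0.06 for Sdha (adjusted p = 0.14, edgeR) and 0.19 ± 0.07 for Sdhb (adjusted p = 0.12). The membrane anchor Sdhc had values of 27.6 to 44.5 CPM in PBS and 39.3 to 47.2 CPM in CSE, with a change of 0.25 ± 0.15 (adjusted p = 0.331).

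Of 9 nuclear complex III members, none was called and 8 had a fitted change above 0, against 11.4% and 50.9% of all genes. Uqcrc2, a core protein, had 157, 153 and 144 CPM in PBS and 172, 170 and 181 CPM in CSE. Those groups did not overlap, and the change was 0.21 ± 0.07 (adjusted p = 0.0819, edgeR). The small subunit Uqcrq showed a larger change with a larger error, 0.53 ± 0.19 (adjusted p = 0.106), from 93.5, 53.6 and 64.7 CPM to 83.5, 94.8 and 126 CPM. Its first PBS library lay above its first CSE library. Uqcrb, another small subunit, had a fitted change of 0.37 ± 0.16 (adjusted p = 0.174). For the redox subunits the fitted change was 0.11 ± 0.07 for Cyc1, cytochrome c1 (adjusted p = 0.389), and 0.02 ± 0.09 for Uqcrfs1, the Rieske iron-sulfur protein (adjusted p = 0.919).

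Cycs encodes cytochrome c, which carries electrons to complex IV and, released from mitochondria, takes part in apoptosis (chr6:50562563-50566538). It had 74.8, 71.4 and 63.6 CPM in PBS and 81.7, 83.1 and 99.0 CPM in CSE, with no overlap. The change was 0.33 ± 0.09 (adjusted p = 0.0425, edgeR), while per length the level went from 42.8 ± 2.02 to 47.5 ± 2.17 TPM. Its region before the start, printed above, holds both sets of marked letters. Cycs shares 28.6% of its words with Gm10053 on chromosome 19, a gene annotated as coding, and its copies together took between 39.8% and 46.5% of their combined counts. With these copies added the change was 0.27 ± 0.10 (adjusted p = 0.112, edgeR) and the groups overlapped, so that the call was lost. Its call ended under 10 of 19 other settings, and that of Ndufa12 under 9 of 18.

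In complex IV, with which Ndufa4 and Ndufa4l2 were counted despite their names, 13 of 20 nuclear members could be tested. A fitted change above 0 was found in 12, against 50.9% of all genes. Cox6a2 was the only call (7.69%, against 4.32% of all genes called higher). Cox7c had a change of 0.55 ± 0.26 but values from 19.1 to 40.7 CPM in PBS and from 31.2 to 57.4 CPM in CSE (adjusted p = 0.215, edgeR). The groups also overlapped for Cox5a, at 145 to 239 CPM in PBS and 192 to 260 CPM in CSE (0.32 ± 0.17, adjusted p = 0.266). Cox4i1 had a fitted change of 0.15 ± 0.14 (adjusted p = 0.554).

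None of the 16 tested members of complex V was called, against 11.4% of all genes. Summed over all its transcripts, Atp5b, the catalytic beta subunit, was the most abundant nuclear member at a mean of 2471 TPM over all libraries. It went from 2337 ± 248 to 2604 ± 187 TPM with a fitted change of 0.13 ± 0.08 (adjusted p = 0.351, edgeR). On average 47.5% of its TPM lay on transcripts not annotated as coding. Its coding transcript, Atp5b-201, had 1309, 1250 and 1283 TPM in PBS and 1368, 1280 and 1224 TPM in CSE, with overlap. The alpha subunit Atp5a1 had a fitted change of 0.14 ± 0.08 (adjusted p = 0.281). The c subunit of the rotating ring is encoded by Atp5g1, Atp5g2 and Atp5g3. Atp5g3 supplied 69.8 ± 0.845% of their summed TPM in PBS and 68.5 ± 1.07% in CSE, Atp5g1 27.9 ± 1.39% and 28.8 ± 1.32%, and Atp5g2 2.29 ± 0.85% and 2.68 ± 0.241%. The shares of each of these genes overlapped between the groups. Atp5g1 came closest to a call, at 0.33 ± 0.12 (adjusted p = 0.105). Atp5s, once described as a coupling factor of the synthase, had 8.54, 11.3 and 8.90 CPM in PBS and 11.5, 12.0 and 14.0 CPM in CSE (0.38 ± 0.14, adjusted p = 0.118).

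In TPM the called members were among the least abundant. Ordered by mean TPM over all libraries, Atp5s was lowest of the 80 tested nuclear members at 15.2, followed by Cox6a2 at 23.9, Ndufa12 at 38.6, Ndufb3 at 42.1 and Cycs at 45.1, against a median of 180 TPM. These ranks leave out copies, which took 57.2% to 75.0% of the combined counts for Ndufa12 and 39.8% to 46.5% for Cycs. TPM also divides by length, and the main transcript of Cycs, at 3123 nt, is the longest of the 80. The summed level of all nuclear members was 25935, 22442 and 22834 TPM in PBS and 23607, 25147 and 27420 TPM in CSE. The groups overlapped, with a ratio of means of 1.07. By complex the ratios ran from 1.00 for complex II to 1.08 for complexes I and V, leaving aside Cycs and Atp5s alone. Transcripts not annotated as coding held between 16.7% and 18.9% of this sum in a library, and more than 50% of the TPM of 10 members, among them Ndufa10 and Cox7b.

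Much of the spread was shared by the subunits of a library. The mean log2 deviation of the 80 nuclear members from the PBS mean was 0.23, -0.16 and -0.07 in PBS and 0.03, 0.20 and 0.43 in CSE. The first PBS library thus stood above the first and second CSE libraries. The pattern was wider for short transcripts: over the 27 members of 343 to 547 nt the values were 0.30, -0.26 and -0.04 in PBS and -0.04, 0.20 and 0.58 in CSE, and over the 27 members of 815 to 3123 nt they were 0.14, -0.05 and -0.09 in PBS and 0.08, 0.14 and 0.26 in CSE. The median fitted change was 0.28 for the short group and 0.16 for the long one. Across the 80 genes, which share their libraries and are not independent, Spearman's rho between the fitted change and transcript length was -0.29, and with GC content -0.26. With an offset for effective length, 5 nuclear members were called higher (6.25%, against 4.51% of all genes), Ndufa10, Ndufb3, Uqcrq, Cox6a2 and Cycs.

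**Figure D3:**
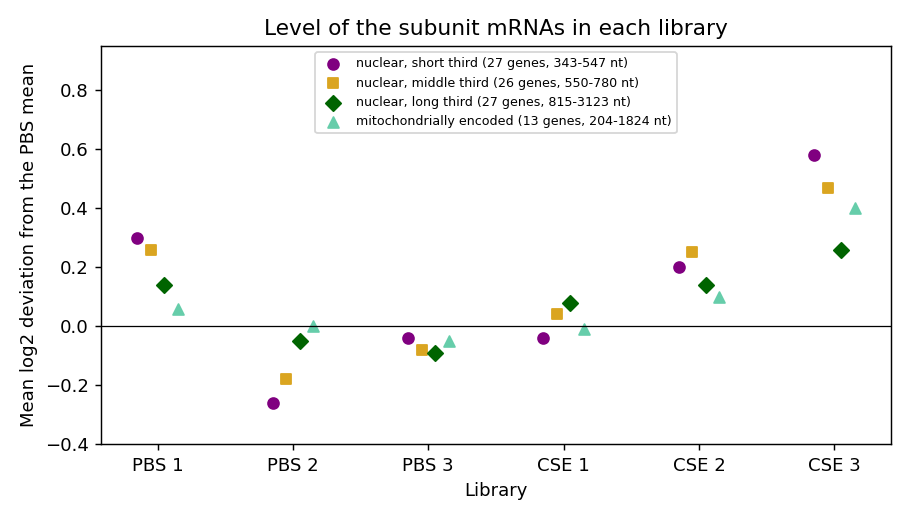
Mean log2 deviation from the PBS mean in each library for nuclear members grouped by transcript length and for mitochondrially encoded members. PBS replicate 1 and CSE replicate 3 are high, and the short transcripts range from -0.26 to 0.58.

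DESeq2 called 6 nuclear members higher (7.5%, against 4.68% of all genes), the 4 above with Ndufa10 and Atp5g1, and limma-voom called 5 (6.25%, against 4.52%), the 4 with Ndufa10. Leaving out PBS replicate 1 raised the number of nuclear members called higher from 4 to 28 (35.0%), while over all genes the share went to 6.99%. Leaving out PBS replicate 3, CSE replicate 2 or CSE replicate 3 left Cox6a2 alone. Without PBS replicate 2 the calls were Ndufa12, Cox6a2 and Atp5s, and without CSE replicate 1 they were Ndufa12, Ndufb3, Uqcrb and Cox6a2. Fitting without a filter on low counts gave 27 calls among 85 nuclear members (31.8%), against 4.62% of all genes then tested. With an offset for each library's GC and length trend there were 3 calls (3.75%, against 6.54% of all genes), Ndufb3, Cox6a2 and Atp5g1. In limma on log2(TPM + 1), where a fold change is understated for low genes, only Cox6a2 was called (1.23%, against 1.8% of all genes). With the smaller pseudocount of 0.1, which understates it less, Cox6a2 was again the only call (1.23%, against 1.76% of all genes).

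**Figure D4:**
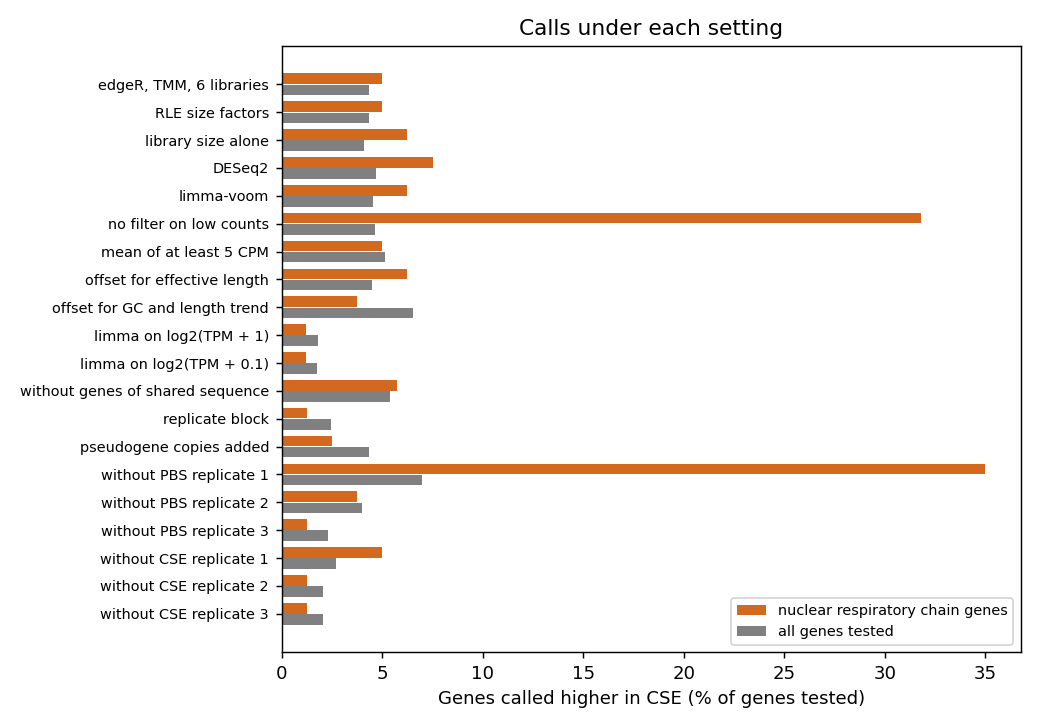
Share of genes tested that were called higher in CSE under each setting, for nuclear respiratory chain genes (orange) and all genes (grey). The orange bars reach 31.8% without a filter and 35.0% without PBS replicate 1, and lie between 1.23% and 7.5% under the other settings.

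None of the 13 mitochondrially encoded members was called in either direction, against 11.4% of all genes. At an unadjusted p under 0.05 there were also 0, against 26.0% of all genes. DESeq2 and limma-voom also called 0, against 11.8% and 11.6% of all genes. Without a filter on low counts 5 of the 13 were called, all higher, against 9.64% of all genes called in either direction. The fitted change was above 0 in 9 of 13, against 50.9% of all genes, with a median of 0.14 on the log2 scale against 0.01. The highest level was that of mt-Co2, a core subunit of complex IV, at 13014, 12260 and 13542 TPM in PBS and 12980, 13060 and 16437 TPM in CSE. mt-Nd3, of complex I, was the lowest, at 16.5 to 32.2 TPM in PBS and 16.0 to 57.5 TPM in CSE. These values depend on how counts were divided with a nuclear copy, Gm28438 on chromosome 1, which shares 98.1% of its words. The copy took 63.4% to 74.8% of the combined counts in PBS and 42.3% to 80.7% in CSE. With it added, the fitted change went from 0.64 ± 0.45 to 0.36 ± 0.20 (adjusted p = 0.282, edgeR). mt-Cytb, the complex III subunit that carries the b haems, was the 1 member whose groups did not overlap, at 1547, 1574 and 1456 CPM in PBS and 1671, 1669 and 1691 CPM in CSE (0.14 ± 0.07, adjusted p = 0.256, edgeR). Over all genes, the groups did not overlap in 15.1% with CSE higher and in 16.2% with CSE lower. The catalytic subunit mt-Co1 had 4088, 6648 and 3621 CPM in PBS and 4214, 5035 and 4455 CPM in CSE, with the second PBS library highest (-0.07 ± 0.19, adjusted p = 0.862). The lowest fitted change was that of mt-Nd5, at -0.14 ± 0.09 (adjusted p = 0.40). Summed over the 13 genes, the level was 50567, 56346 and 51592 TPM in PBS and 55195, 53799 and 61620 TPM in CSE, with overlap.

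The counts of mt-Nd3, mt-Co1, mt-Co2, mt-Co3 and mt-Atp6 were divided with copies of mitochondrial DNA in the nuclear genome, several of them side by side on chromosome 1. Copies took almost none of the estimated counts of the other mitochondrially encoded members. Gm28437 (chr1:24613189-24613971) shares 99.9% of the words of mt-Co3, Gm28661 (chr1:24614885-24615565) 99.5% of those of mt-Co2 and Gm10925 (chr1:24613974-24614651) 99.5% of those of mt-Atp6. The mt-Co3 copy took 46.5%, 63.6% and 43.5% of the combined counts in PBS and 59.9%, 40.0% and 27.6% in CSE. These shares varied within both groups, so the values of mt-Co3 alone, 3274, 2041 and 2690 CPM in PBS and 2443, 3585 and 5087 CPM in CSE, depend on how the counts were divided. Added together, mt-Co3 and its copy had 6117, 5614 and 4760 CPM in PBS and 6093, 5977 and 7022 CPM in CSE, and the fitted change went from 0.47 ± 0.23 to 0.21 ± 0.10 (adjusted p = 0.226, edgeR).

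For mt-Atp6, the proton channel subunit of complex V, adding the copy gave 1643, 1732 and 1797 CPM in PBS and 1907, 1907 and 2076 CPM in CSE. The groups then did not overlap, and the change was 0.19 ± 0.07 (adjusted p = 0.131, edgeR). For mt-Co2 the sums were 5884, 5562 and 4549 CPM in PBS and 6063, 5967 and 7435 CPM in CSE, also without overlap (0.28 ± 0.11, adjusted p = 0.144). No mitochondrially encoded member was called with its copies added, against 11.5% of all genes, and 2 nuclear members were, Ndufb3 and Cox6a2 (2.5%, against 4.32% called higher). Over the 13 genes, copies took 20.9%, 24.5% and 15.5% of the combined counts in PBS and 23.4%, 20.6% and 15.8% in CSE.

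**Figure D5:**
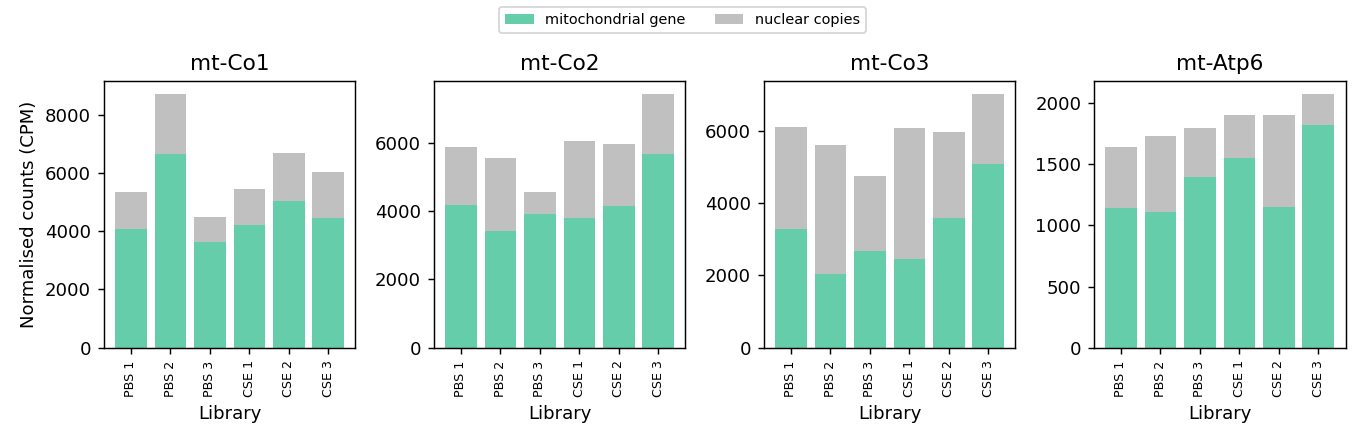
Normalised read count (CPM) of 4 mitochondrially encoded members in each library (green) with the counts of their nuclear copies stacked on top (grey). The grey part differs between libraries of the same group, most for mt-Co3, where it runs from 27.6% to 63.6% of the bar.

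Genes that build or feed the chain gave 10 calls higher and 0 lower among those outside the name rule, against 4.32% and 7.12% of all genes. Tested were 50 assembly factors, 19 genes of mitochondrial DNA expression and biogenesis and 13 of the citric acid cycle. There were also 18 for other electron donors and coenzyme Q and 7 carriers. Without PBS replicate 3, Slc25a5 was the only one of the 10 still called, and 2.32% of all genes were called higher. Without PBS replicate 1 there were 22 calls, and 6.99% of all genes were called higher. Of 50 tested assembly factors, 5 rose, with a median change of 0.21 over the list. They were Cox18, which inserts a complex IV subunit into the inner membrane (0.37 ± 0.08, adjusted p = 0.0108), Tmem70, an ATP synthase assembly factor (0.36 ± 0.09, adjusted p = 0.0212), Sdhaf1, for complex II (0.48 ± 0.12, adjusted p = 0.025), Cmc1 (0.47 ± 0.13, adjusted p = 0.044) and Cox16 (0.44 ± 0.13, adjusted p = 0.0491), both for complex IV. For Sdhaf1 and Cox16, 69.9% and 66.8% of the words occur in other genes. Of 19 genes of mitochondrial DNA expression and biogenesis, 0 were called and 13 had a fitted change above 0, against 11.4% and 50.9% of all genes. In this list 5 genes had an unadjusted p under 0.05, 4 of them higher, against 26.0% and 12.6% of all genes. DESeq2 and limma-voom each called 1 higher, against 4.68% and 4.52% of all genes. Slirp, which stabilises mitochondrial mRNAs, came closest (0.47 ± 0.14, adjusted p = 0.0565, edgeR), with 65.9% of its words in other genes, followed by the mitochondrial DNA-binding protein Ssbp1 (0.37 ± 0.12, adjusted p = 0.0754). The gene of NRF1, Nrf1, had 29.1, 28.4 and 28.9 TPM in PBS and 26.0, 24.3 and 18.8 TPM in CSE. These groups did not overlap, but the change did not pass (-0.25 ± 0.09, adjusted p = 0.108). The coactivator Ppargc1a was low in all libraries, at 2.57 to 3.51 TPM in PBS and 2.99 to 4.21 TPM in CSE. Tfam, which packages mitochondrial DNA, had 64.7 to 73.9 TPM in PBS and 65.2 to 81.6 TPM in CSE. In CPM, however, all its CSE libraries lay above all PBS libraries, although the change did not pass (0.17 ± 0.07, adjusted p = 0.158, edgeR). Of the 19 genes, 5 lay wholly higher in CSE in CPM and 1 wholly lower, against 15.1% and 16.2% of all genes.

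Of 7 carriers, 1 was called higher, against 4.32% of all genes. This was Slc25a5, which exchanges ADP and ATP across the inner membrane and rose from 866, 770 and 874 TPM to 1124, 1121 and 1094 TPM. All CSE libraries lay above all PBS libraries, and the change of 0.50 ± 0.09 (adjusted p = 0.00365, edgeR) was called under every setting that tested the gene. Of its words, 67.1% occur in other genes. Counts of copies were added for the respiratory chain members only, so those of Slc25a5 were not added in any setting. The setting that removed genes of shared sequence left Slc25a5 out. How far its call depends on shared sequence was therefore not tested. The phosphate carrier Slc25a3 did not pass, at 0.19 ± 0.07 (adjusted p = 0.116). In the citric acid cycle, 2 of 13 genes were called higher, against 4.32% of all genes. They were Suclg2, a subunit of succinyl-CoA ligase (0.36 ± 0.08, adjusted p = 0.0126, edgeR), and Ogdh, of the oxoglutarate dehydrogenase complex (0.26 ± 0.07, adjusted p = 0.0267). Of 18 genes for other electron donors and coenzyme Q, 2 were called higher, against the same 4.32%. They were Dhodh, a pyrimidine synthesis enzyme that reduces ubiquinone (0.28 ± 0.08, adjusted p = 0.0468, edgeR), and Coq2, which makes coenzyme Q (0.30 ± 0.08, adjusted p = 0.046). DESeq2 called 0 of this list, against 4.68% of all genes called higher. The calls were lost under 10 of 19 other settings for Dhodh and 11 of 19 for Coq2. The calls of the remaining genes of these lists, Slc25a5 aside, were lost under 4 to 9 settings.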

How the data were processed

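RNA-seq was measured in 6 libraries of MLE-12 cells, grouped by their titles as 3 PBS and 3 CSE. The authors deposited 1 table a library, with the estimated count, TPM value and effective length of 118489 transcripts, under kallisto's column names per the file headers. In TPM the counts are divided by effective length and scaled by the authors to one sum. Per the submitters' processing notes the tools included fastp 0.20.1, FastQC 0.12.1, kallisto 0.46.2 and DESeq2 1.40.2, with the build GRCm38. How each was used, the index and the strand option were not given in the sources used here. Because a read that matches several transcripts is divided by an estimate, values of near-identical genes are uncertain.

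Transcripts were matched to GENCODE vM21 by identifier. No match was found for 1673, which held 0.638% to 0.664% of the counts and were not used. Counts were summed per gene and rounded, filtered with filterByExpr (minimum count 10) and scaled by TMM. Treatment was the only factor in edgeR's quasi-likelihood test (two-sided), with Benjamini-Hochberg adjustment over 13451 genes and a threshold of 0.05. The standard error is the size of the log2 change over the square root of F. CPM values use TMM-scaled library sizes. Shared sequence is the percentage of 31-base words of a gene's main transcript found in transcripts of other genes. The library deviations are of log2(CPM + 0.5). The procedure was tested on simulated data. No libraries of a group were duplicates, since the chi-square per degree of freedom between them lay between 5.65 and 17.8.

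The members and lists were chosen with earlier results of these data known. Named genes were every called member, the 3 members of smallest p in each complex, core subunits, isoform sets, all mitochondrially encoded members, and in each pathway list the called genes and the 2 of smallest p. Not every such gene is described. Members named only in lists of calls, Atp5s, Itgad, Nrf1, Ppargc1a and Tfam were chosen after their values were seen. Adding the counts of copies that share at least 5% of a member's words was also chosen after seeing the data, as were the motifs, whose letters were set after the promoter of Cycs had been seen.

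Other settings tried were scaling by RLE or by library size, limma-voom, DESeq2, no filter or one on a mean of 5 CPM, offsets for effective length and for a GC and length trend (loess, span 0.5), limma on log2 TPM with a pseudocount of 1 or 0.1 (genes of at least 1 TPM), removal of genes with at least 50% shared words, the replicate number as a block, and each library left out. Python 3.11.15 was used with matplotlib 3.10.9, scipy 1.17.1 and pandas 2.3.3, and R 4.3.3 with DESeq2 1.42.0, limma 3.58.1 and edgeR 4.0.16.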

Additional observations from a re-analysis of the deposited data

How the results depend on the processing

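With 3 libraries a group, calls near the threshold rest on single libraries. Nuclear members called higher, 4 in all libraries, numbered 27 without a filter on low counts, 2 with pseudogene copies added, and 1 each in limma on log2(TPM + 1) and log2(TPM + 0.1). With the replicate number as a block the count was 1, Cox6a2, and that of pathway genes fell from 10 to 5. In that fit 2.46% of all genes were called higher. Between libraries of the same number, the correlations of their deviations were -0.124, 0.00608 and -0.0594. In no pair did both libraries correlate best with their own number. With 3 libraries a group this cannot show whether libraries of the same number were made together. Leaving out 1 library at a time gave 1 to 28 nuclear calls, 28 of them without PBS replicate 1, and 1 to 22 pathway calls, 22 of them without PBS replicate 1 and 1 without PBS replicate 3. Of all genes, 6.99% were called higher without PBS replicate 1 and 2.32% without PBS replicate 3. Pathway genes called higher were 17 without a filter and 1 in each TPM fit, where 1 was called lower. The shares of all genes called higher were 4.62% without a filter and 1.8% and 1.76% in the TPM fits. Mitochondrially encoded calls went from 0 to 5 without a filter. The cause was not tested in any of these cases. No setting called a nuclear member lower. The median change of nuclear members stayed between 0.11 and 0.34 on the log2 scale and that of mitochondrially encoded members between 0.05 and 0.20. The median over all genes lay between -0.06 in the TPM fits and 0.03 with the GC and length offset.

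Changes that reversed belonged to genes that were called under no setting, except mt-Nd3, which was called without a filter. In both TPM fits the log2 change was -0.07 for Cox6b1, Ndufa4 and Uqcrfs1 and -0.06 for Ndufs1 and Ndufv1. The median over all genes was also -0.06 in both TPM fits, so these genes lay near that median. With the effective length offset Ndufa4 was at -0.02, and with the GC and length offset Ndufa4 was at -0.09 and Uqcrfs1 at -0.05. For mt-Nd4 it was 0.01 in limma-voom and with the replicate block. With single libraries left out the change ran from -0.09 to 0.28 for Cox6b1, from -0.02 to 0.34 for Cox7a2, from -0.13 to 0.08 for Cox7a2l, from -0.12 to 0.14 for Ndufa4, from -0.01 to 0.12 for Ndufv1 and from -0.04 to 0.12 for Uqcrfs1. It ran from -0.23 to 0.24 for mt-Co1, from -0.01 to 0.97 for mt-Nd3, from -0.10 to 0.18 for mt-Nd4, from -0.02 to 0.18 for mt-Nd4l and from -0.20 to 0.18 for mt-Nd6.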
